A study of Mus musculus with 8 samples.

Results

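Thrombospondins, tenascins, fibronectin, the fasciclin proteins periostin and TGFBI, and SPARC are secreted glycoproteins of the extracellular matrix. The 10 genes Thbs1, Thbs2, Thbs3, Comp, Tnc, Tnxb, Fn1, Postn, Sparc and Tgfbi were taken from a table of 55471 genes by their symbols, each of which stood in 1 row. They were compared between SV-LECs left untreated and SV-LECs exposed to 10 ng/ml TGFβ1 for 72 h, with 4 libraries per group and 8 in all. SV-LEC is a single line of mouse cells from mesenteric adventitial tissue, immortalized with SV40 and labelled as lymphatic endothelial, and both groups carry this immortalization. The samples of a group are described in the study's Methods as technical replicates, so errors and p-values measure the spread between these samples and not between independent experiments. Levels are given as CPM, counts scaled by normalized library size. Changes are given as log2 fold changes (log2FC) of treated over untreated cells with their standard errors (SE), and were tested with edgeR's likelihood ratio test. A gene was called when its FDR, the p-value adjusted by Benjamini and Hochberg's method over all 13818 genes that passed a filter on low counts, was under 0.05.

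Fibronectin forms fibrils outside the cell on which other matrix proteins assemble, and cells bind it through integrins. Thrombospondins and tenascins are large modular proteins that modify adhesion and signalling more than they bear load, and such proteins are called matricellular. Thrombospondin-1 can release TGFβ from its latent complex, periostin and TGFBI share fasciclin domains, and SPARC binds collagen and calcium. TGFβ is a known inducer of several of these genes in mesenchymal cells, and TGFBI was named for that property.

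After TGFβ1, 7 of the 10 genes rose, Sparc fell, Tnxb was not called and Tgfbi was too low to be tested. The largest rises were those of thrombospondins, with a log2FC of 3.03 for Thbs2, 2.83 for Comp, which had few counts, and 2.39 for Thbs1. The fitted fold was 8.18 for Thbs2 and 5.25 for Thbs1, against 1.39 for Tnc and 1.56 for Fn1. Of all genes tested, 75.6% were called, 37.6% as higher and 38.0% as lower, so a call alone does not set these genes apart. In 8 of the 9 members tested the 2 groups did not overlap in CPM, as in 69.8% of all genes, and 7 of them lay higher after TGFβ1, as did 34.7% of all genes. A call with a log2FC of at least 1 was made for 10.9% of all genes in the upward direction and for 5 of the 9 members tested. The median log2FC of these 9 was 1.24, and that of all genes tested was -0.01. Comp passed the filter on low counts only through its TGFβ1-treated libraries, so a rise was favoured by that choice. Without Comp, 6 of 8 members tested were called higher, 4 of them with a log2FC of at least 1, and the median log2FC was 0.94.

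Genes of a TGFβ response list rose, and the labelled cell type was only partly borne out by its markers. All 8 genes of this list were called higher, where 37.6% of all genes tested were. Among the 8 was Smad7, an inhibitor in the TGFβ pathway, with a log2FC of 0.89. The list was chosen with earlier results of these data known, so it is no independent check of the response. Of 7 lymphatic endothelial markers, Pdpn, Flt4 and Nrp2 were tested and Ccl21a had 0 counts in every library. The defining lymphatic factor Prox1 had at most 2 counts in any library, Lyve1 at most 3 and Reln at most 2. Of 8 pan-endothelial markers, Tie1 and Erg had 0 counts throughout, Cdh5 had at most 2 counts, Emcn at most 1, Pecam1 at most 5 and Vwf at most 10. Kdr had 11.6 CPM in untreated and 22.1 CPM in treated cells. The summed level of the 7 lymphatic markers was 412 to 448 CPM in untreated and 426 to 440 CPM in treated libraries, most of it from Pdpn. The sum of the 8 pan-endothelial markers was 11.5 to 13.1 and 22.2 to 24.1 CPM.

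Markers of smooth muscle were higher after TGFβ1. Of 6 smooth muscle markers, the 5 that were tested were all called higher, where 37.6% of all genes tested were. The summed level of the list went from a range of 837 to 899 CPM to a range of 2104 to 2222 CPM. Of 7 fibroblast markers, Pdgfrb rose and Pdgfra and Thy1 fell, and the sum went from 281 to 305 CPM down to 167 to 180 CPM. Of 6 haematopoietic markers only Cd68 was tested, and Ptprc had at most 1 count in a library, while the sum of the list went from 5.88 to 7.82 CPM up to 14.9 to 17.0 CPM. Of 5 epithelial markers Krt8 and Krt18 rose, and the sum of the list went from 0.304 to 1.18 CPM up to 2.51 to 4.19 CPM. Krt18 passed the filter on low counts only through the treated libraries, so a rise was favoured, and Epcam, Cdh1 and Cldn4 were not tested. The part of these marker genes in the changes below was not tested. In RNA from whole cultures, fewer cells of a kind and less RNA per cell cannot be told apart.

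Promoter sequence is shown for 4 genes that differed in their behaviour, namely Thbs2, which rose most, Postn, which rose, Sparc, which fell, and Tgfbi, which was nearly silent. Each is the 250 bases before a RefSeq transcript start on GRCm38.p6, written in the direction of transcription, and the starts used for Sparc and Tgfbi lie inside the annotated extent of the gene. Capitals mark CAGAC, the core of SMAD-binding elements, TGANTCA of AP-1, GGAATG of TEAD factors, the GC box GGGCGG and the TATA box TATAAA, each on either strand. The windows lie at chr17:14694263-14694512 on the minus strand for Thbs2, chr3:54360857-54361106 on the plus strand for Postn, chr11:55420081-55420330 on the minus strand for Sparc and chr13:56609336-56609585 on the plus strand for Tgfbi.
Thbs2: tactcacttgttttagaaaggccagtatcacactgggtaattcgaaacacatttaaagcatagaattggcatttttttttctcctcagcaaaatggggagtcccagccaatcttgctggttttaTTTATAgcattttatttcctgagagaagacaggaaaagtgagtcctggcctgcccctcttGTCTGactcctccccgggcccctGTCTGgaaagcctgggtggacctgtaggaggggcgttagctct
Postn: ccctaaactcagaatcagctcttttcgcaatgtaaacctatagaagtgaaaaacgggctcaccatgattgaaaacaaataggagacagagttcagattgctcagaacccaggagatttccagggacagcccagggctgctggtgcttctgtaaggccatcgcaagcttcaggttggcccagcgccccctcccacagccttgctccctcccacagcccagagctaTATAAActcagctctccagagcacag
Sparc: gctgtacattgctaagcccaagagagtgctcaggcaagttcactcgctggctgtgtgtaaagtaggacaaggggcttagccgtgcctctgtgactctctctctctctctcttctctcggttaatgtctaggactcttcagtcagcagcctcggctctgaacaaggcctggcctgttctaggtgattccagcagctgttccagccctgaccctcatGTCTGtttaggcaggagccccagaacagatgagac
Tgfbi: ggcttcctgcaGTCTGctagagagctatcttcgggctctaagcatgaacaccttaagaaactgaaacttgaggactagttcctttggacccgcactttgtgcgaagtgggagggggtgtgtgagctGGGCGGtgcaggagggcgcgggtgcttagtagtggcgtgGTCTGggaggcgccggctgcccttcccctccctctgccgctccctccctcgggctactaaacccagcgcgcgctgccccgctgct

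CAGAC occurred 2 times in the Thbs2 window, 2 times in that of Tgfbi, 1 time in that of Sparc and not in the Postn window shown. Postn has another RefSeq window, chr3:54359017-54359266, which held CAGAC and not TATAAA. Among all 32851 RefSeq windows of this length, 42.2% held it. TATAAA was present in the Thbs2 and Postn windows shown and in 12.4% of all windows, and GGGCGG in the Tgfbi window and in 32.7%. TGANTCA, held by 6.75% of all windows, and GGAATG, held by 12.6%, were found in none of the 4 windows. RefSeq entries were found for 7 of the 10 genes, and those of Thbs1, Comp and Fn1 were not found. These matches describe letters in a window and no binding was measured.

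Thbs1 and Thbs2 encode the trimeric thrombospondins, which inhibit angiogenesis and carry type I repeats. Thbs1 (ENSMUSG00000040152) lies on chromosome 2 of GRCm38 from 118111876 to 118127133. It had 423, 424, 384 and 375 CPM in the untreated libraries and 2174, 2192, 2002 and 2064 CPM in the treated libraries, in the order of their numbers. The lowest treated library lay far above the highest untreated library. The mean rose from 402 ± 25.7 to 2108 ± 90.8 CPM (SD, n = 4). The log2FC was 2.39 (SE 0.0542), and the likelihood ratio statistic of 1949.36 gave an FDR too small for the computer to represent. By mean CPM Thbs1 moved from rank 326 to rank 20 among all genes, and per kilobase of exon from rank 653 to rank 48.

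Thbs2 (ENSMUSG00000023885, chromosome 17, 14665500 to 14694235) rose even more steeply from a lower level. Its untreated libraries had 37.8, 38.4, 37.9 and 33.3 CPM, and its treated libraries had 307, 333, 285 and 282 CPM. The groups were again widely apart, with replicate 4 the lowest in both. The mean went from 36.8 ± 2.39 to 302 ± 23.4 CPM (SD, n = 4), and the log2FC was 3.03 (SE 0.0662, likelihood ratio statistic 2098.7). Only 1.60% of the genes tested had a larger log2 fold change, and Thbs2 moved from rank 6157 to rank 549 by mean CPM. Per kilobase of exon it moved from rank 7542 to rank 1156.

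Thbs1 and Thbs2 were also compared with each other. For each library the count of Thbs1 was divided by that of Thbs2, which does not depend on how libraries are scaled. The log2 ratio lay between 3.34 and 3.49 in untreated and between 2.72 and 2.87 in treated libraries, so the groups did not overlap. In linear terms there were 10.9 reads of Thbs1 for each read of Thbs2 before and 7.00 after TGFβ1. The difference in log2 ratio was -0.64 (p = 0.0286 by an exact permutation test on both sides, the lowest p possible with 4 against 4, and 0.0571 when adjusted over the 4 ratios computed). The ratio was thus lower in all 4 treated libraries, but its adjusted p missed 0.05. Since the p before adjustment could go no lower, the adjusted p depended on the other ratios and does not measure the size of this shift. Thbs1 had more reads than Thbs2 in every library.

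Thbs3 and Comp encode thrombospondins that form pentamers and lack type I repeats, and Comp is best known from cartilage and tendon. Thbs3 (ENSMUSG00000028047, chromosome 3, 89215180 to 89226837) had 8.38, 8.38, 8.08 and 7.25 CPM in untreated libraries and 23.4, 22.2, 19.4 and 24.5 CPM in treated libraries. All treated libraries were above all untreated libraries. The log2FC was 1.48 (SE 0.0947, edgeR FDR = 6.98e-54). Thbs3 shares 318 exonic bases with Mtx1 on the opposite strand, and 2.48% of the read-length stretches of its transcripts also occur in Mtx1. The use of strand in counting is not given in the sources used here, so how reads of the shared bases were assigned is not known. Mtx1 itself had a log2FC of -0.01 (edgeR FDR = 0.884).

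Comp (ENSMUSG00000031849, chromosome 8, 70373558 to 70382066) was close to the limit of detection. It had 3, 4, 4 and 0 counts in the untreated libraries and 11, 25, 14 and 27 counts in the treated libraries. The groups did not overlap, but the treated counts varied widely. The mean went from 0.117 ± 0.0793 to 0.887 ± 0.294 CPM (SD, n = 4), and the log2FC was 2.83 (SE 0.395, edgeR FDR = 2.41e-12). The estimate rests on few counts in untreated cells and was 2.22 with a prior count of 2. Comp passed the filter on low counts only through its treated libraries, so a rise was favoured. The FDR and the ratio that follows share this limit. The log2 ratio of Comp to Thbs3 was -5.83 ± 0.901 in untreated and -4.63 ± 0.434 in treated libraries (SD, n = 4; exact two-sided permutation test, p = 0.0286, or 0.0571 adjusted over the 4 ratios). Without untreated replicate 4, which had 0 counts of Comp, the difference fell from 1.20 to 0.75. It was 1.53 with 0.5 counts added to each term in place of 1.

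**Figure D1:**
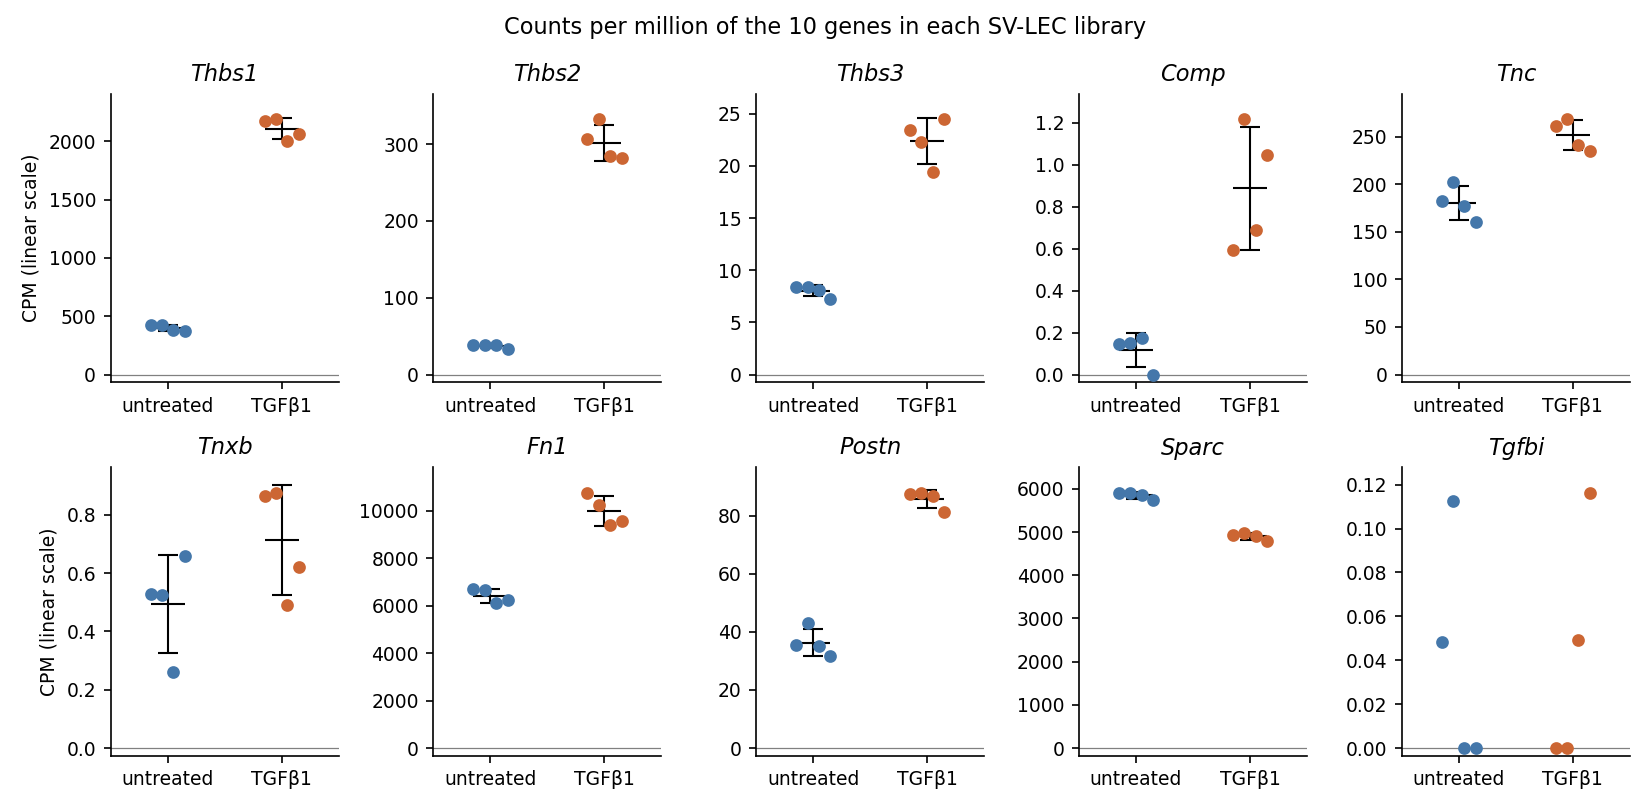
CPM (linear axes from 0, a separate scale for each gene) of the 10 genes in the 4 untreated and 4 TGFβ1-treated libraries, as points, with the mean and SD as black bars except for Tgfbi. Treated libraries lie above untreated libraries without overlap for Thbs1, Thbs2, Thbs3, Comp, Tnc, Fn1 and Postn and below them for Sparc, while the groups overlap for Tnxb and Tgfbi.

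Tenascin-C, encoded by Tnc, is a hexameric protein made in wounds and tumours that weakens adhesion to fibronectin, and tenascin-X, encoded by Tnxb, is a component of loose connective tissue. Tnc (ENSMUSG00000028364, chromosome 4, 63959785 to 64047015) had 182, 203, 177 and 160 CPM in untreated libraries and 262, 269, 241 and 235 CPM in treated libraries. The groups were separate but close, with a gap of 0.21 on the log2 scale between the highest untreated and the lowest treated library. The log2FC was 0.48 (SE 0.0672, edgeR FDR = 2.86e-12), and 22.7% of the genes tested had a larger one. Tnc was thus called, but with a modest change.

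Tnxb (ENSMUSG00000033327, chromosome 17, 34670535 to 34719815) had 11, 14, 6 and 13 counts in untreated and 16, 18, 10 and 16 counts in treated libraries. The groups overlapped, since treated replicate 3 lay below 3 of the untreated libraries in CPM. The log2FC of 0.52 had a 95% interval from -0.06 to 1.11 and was not called (edgeR FDR = 0.0992). A rise as large as that of Tnc lies inside this interval, and depth limits the comparison of both tenascins. Without treated replicate 3 the log2 fold change was 0.65 and passed the threshold (edgeR FDR = 0.0493). Without untreated replicate 3 it was 0.31 (edgeR FDR = 0.355). The pseudogene Tnxa, which shares 4.12% of the read-length stretches of Tnxb, had 0 counts in every library. The log2 ratio of Tnc to Tnxb was 8.45 ± 0.563 in untreated and 8.40 ± 0.303 in treated libraries (SD, n = 4; exact two-sided permutation test, p = 0.857, also after adjustment over the 4 ratios).

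Fibronectin was already among the most abundant messages of these cells. Fn1 (ENSMUSG00000026193, chromosome 1, 71585520 to 71653200) had 6688, 6653, 6098 and 6220 CPM in untreated libraries and 10760, 10229.6, 9396 and 9570 CPM in treated libraries. Every treated library was above every untreated library, and replicates 1 and 2 were above replicates 3 and 4 in both groups. The log2FC was 0.64 (SE 0.0525, edgeR FDR = 3.05e-33). By mean CPM, which is not scaled for length, Fn1 moved from rank 2 to rank 1 of all genes. Per kilobase of exon it moved from rank 18 to rank 14. Antisense genes also overlap exons of Fn1, Thbs1 and Tnc, namely Apol7d, Gm29233 and 8030451A03Rik, and none of them had more than 18 counts in a library. The annotation lists 17 transcripts of Fn1, and counts per gene do not tell its splice forms apart.

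Sparc, whose protein regulates collagen assembly, was the only member that fell. Sparc (ENSMUSG00000018593, chromosome 11, 55394500 to 55423183) had 5913, 5906, 5865 and 5738 CPM in untreated libraries and 4930, 4968, 4914 and 4789 CPM in treated libraries. The fall was small but larger than the spread, since the coefficient of variation between libraries was 1.39% in untreated and 1.59% in treated cells. The log2FC was -0.26 (SE 0.0359, edgeR FDR = 2.46e-12), and all treated libraries were below all untreated libraries. Of all genes tested, 38.0% were called lower and 35.1% lay lower without overlap of the groups.

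Periostin and TGFBI are fasciclin-domain proteins that bind integrins and collagens, and their genes behaved differently. Postn (ENSMUSG00000027750, chromosome 3, 54361109 to 54391037) had 35.3, 43.0, 35.1 and 31.7 CPM in untreated libraries and 87.3, 88.0, 86.6 and 81.2 CPM in treated libraries. All treated libraries lay well above the untreated libraries. The log2FC was 1.24 (SE 0.0768, edgeR FDR = 3.10e-57). Postn moved from rank 6220 to rank 3131 by mean CPM, and from rank 8289 to rank 5261 per kilobase of exon.

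Tgfbi (ENSMUSG00000035493, chromosome 13, 56609523 to 56639562) was not detected above the floor in either group. It had 1, 3, 0 and 0 counts in the untreated libraries and 0, 0, 1 and 3 counts in the treated libraries. No library exceeded the floor of 3 counts, which equalled 0.113 to 0.162 CPM depending on the library, and no fold change is given. No stretch of read length in its exons is shared with another gene of the annotation. Its nearest protein-coding neighbours, looked up after its counts were seen, were Lect2 with 0 counts and Smad5 with 2038 to 2884 counts per library. The log2 ratio of Postn to Tgfbi was 8.91 ± 0.685 in untreated and 10.07 ± 0.831 in treated libraries (SD, n = 4; exact two-sided permutation test, p = 0.114, or 0.152 adjusted over the 4 ratios), and it rests on these few counts.

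**Figure D2:**
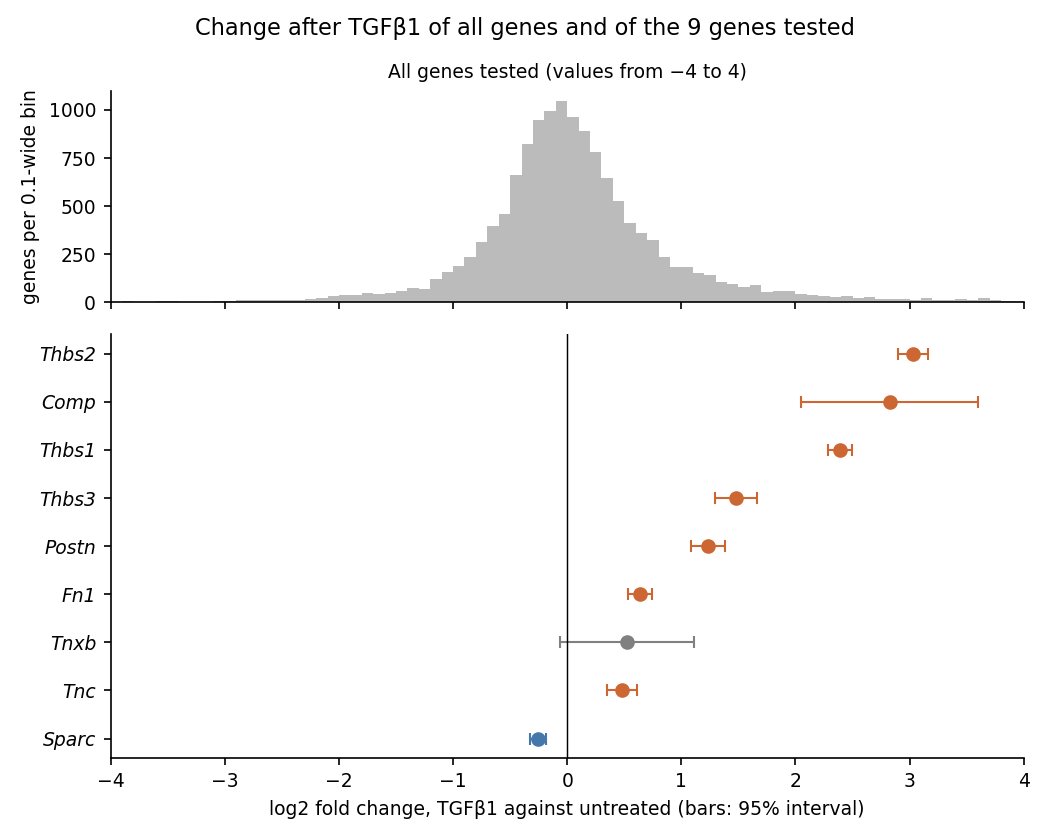
Upper panel, number of genes by log2 fold change in bins of width 0.1 for the genes tested, and lower panel, log2FC of the 9 members tested with 95% intervals, coloured orange where called higher, blue where lower and grey where not called. Thbs2, Comp, Thbs1, Thbs3 and Postn lie above 1, Fn1 and Tnc between 0 and 1, Sparc below 0, and the interval of Tnxb includes 0.

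The 10 genes covered levels from near absence to the top of the transcriptome. Levels of different genes are compared here per kilobase of exon, as RPKM over the union of annotated exons. In untreated cells Sparc had 1546 ± 21.5, Fn1 549 ± 25.7, Thbs1 66.1 ± 4.23 and Tnc 23.2 ± 2.27 RPKM (SD, n = 4), each above the next without overlap of its libraries. Thbs2 with 5.26 ± 0.342 and Postn with 4.17 ± 0.549 RPKM overlapped, as did Tnxb, Comp and Tgfbi, of which no library exceeded 0.0589 RPKM. Thbs3 with 1.66 ± 0.111 RPKM stood between these groups.

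In TGFβ1-treated cells no neighbours in the order overlapped. The order was Sparc, Fn1, Thbs1, Thbs2, Tnc, Postn, Thbs3, Comp, Tnxb and Tgfbi. Thbs2 with 43.1 ± 3.34 RPKM had passed Tnc with 32.4 ± 2.06 RPKM (SD, n = 4), and Comp lay above Tnxb, with which it had overlapped in untreated cells. The gap at the top narrowed, with 1294 ± 20.6 RPKM for Sparc and 855 ± 53.7 RPKM for Fn1 (SD, n = 4).

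**Figure D3:**
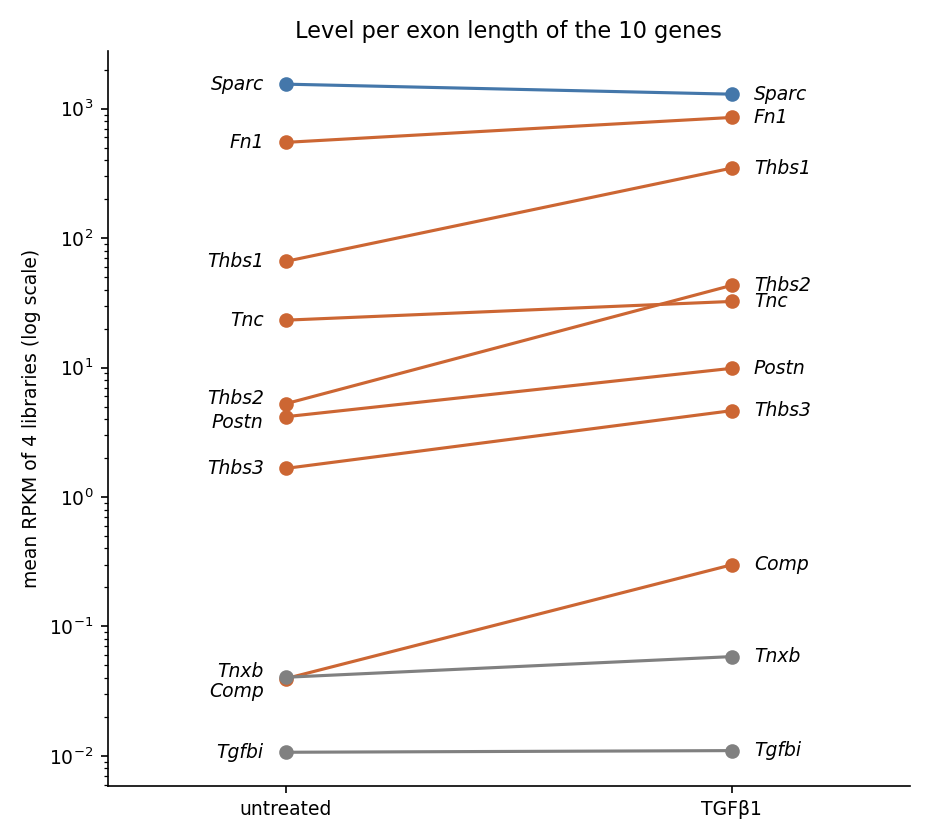
Mean RPKM of 4 libraries (log axis) of each of the 10 genes in untreated and TGFβ1-treated cells, joined by a line that is orange where the gene was called higher, blue where lower and grey where it was not called or not tested. Thbs2 crosses Tnc and Comp leaves Tnxb, while Sparc stays highest and Tgfbi lowest.

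As a share of all reads counted, the 10 genes took 1.29% to 1.36% in untreated and 1.66% to 1.81% in treated libraries. Their summed CPM was 12934.5 ± 403 and 17660.5 ± 789 (SD, n = 4). Within that sum Fn1 held 49.6% before and 56.6% after TGFβ1, Sparc 45.3% and 27.7%, and Thbs1 3.11% and 11.9%. The other 7 genes together made up the small remainder. Of the 9 members tested, 7 were lowest in untreated replicate 4 and 7 were higher in treated replicates 1 and 2 than in 3 and 4. The share of all genes with these orders was not computed, so they cannot be read as a trait of the members. Total counts were 18952504 to 26386941 per library, and chi-square per degree of freedom between libraries of a group was 2.37 to 7.84, above sampling noise.

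Relatives of these proteins moved in both directions. Of 14 relatives, 8 were tested, of which 4 rose and 4 fell, with a median log2FC of -0.02. Over all genes tested, 37.6% were called higher and 38.0% lower. Stab1 passed the filter only through the treated libraries and Tnn only through the untreated libraries, and without them 3 rose and 3 fell. Smoc1 and Smoc2, which belong to the SPARC family, rose from 0.826 to 3.94 and from 1.21 to 5.08 CPM, with log2FC values of 2.26 and 2.06. Spock2 and Spock3, testican genes of the same family, fell by 2.16 and 2.74 on the log2 scale, and Fstl1 rose by 0.32. Stab1, a receptor with fasciclin domains that takes up SPARC, had 5 to 8 counts in untreated and 93 to 139 counts in treated libraries. Tnn, which encodes tenascin-N, fell by 2.50 and Spp1, which encodes osteopontin, by 0.35 on the log2 scale. Thbs4, Tnr, Sparcl1, Spock1, Stab2 and Vtn had at most 3 counts in any library and were not tested.

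Receptors for these proteins moved in both directions, more of them upward. Of 20 receptor genes, 16 were tested, of which 11 rose and 5 fell, where 37.6% and 38.0% of all genes did so, and the median log2FC was 0.86. Itga2 and Itga4 passed the filter only through the treated libraries, and without them 9 of 14 rose and the median was 0.56. Among receptors of thrombospondins, Lrp1 rose by 1.74 and Cacna2d1 by 1.25 on the log2 scale, whereas Cd47 fell by 0.47. Calr, whose product calreticulin acts with Lrp1, rose from 603 to 1701 CPM. Cd36, the receptor through which thrombospondin-1 acts on many endothelial cells, had at most 1 count in a library and was not tested.

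Among integrins that bind fibronectin, the subunits Itga5, Itgav and Itgb1 rose, with log2FC values of 0.55, 0.58 and 0.47. Among the partners of Itgav, Itgb3 and Itgb5 rose by 2.10 and 1.15, and Itgb8 fell by 2.97 on the log2 scale, from 46.2 to 5.91 CPM. The subunits Itga2 and Itga4 were nearly absent from untreated cells, with 0 to 6 and 0 to 1 counts per library, and had 87 to 134 and 15 to 17 counts in treated libraries. Itga3 and Sdc4 fell by 0.58 and 0.27 and Sdc1 rose by 1.15 on the log2 scale. Ptprz1, a receptor of tenascin-C, fell by 0.17 on the log2 scale (edgeR FDR = 0.0197), with groups that overlapped at 101.8 to 132.0 and 98.0 to 106.5 CPM. It was not called at an FDR of 0.01, and 4 rather than 5 receptors were called lower without replicate 2 of either group. Itga8, Itga9 and Itgb6 were not tested.

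Genes whose products bind or process these proteins were examined last. Of 15 such genes, 14 were tested, of which 9 rose, 3 fell and 2 were not called, with a median log2FC of 0.82. Of all genes tested, 37.6% were called higher and 38.0% lower. Bmp1, which encodes a proteinase that acts on procollagens and other matrix proteins, rose by 1.95, and Fbln2 and Hspg2 rose by 1.22 and 1.30 on the log2 scale. Col1a1, Col5a1 and Col12a1 rose by 0.81, 0.83 and 1.02, Col1a2 had a log2FC of -0.08 (edgeR FDR = 0.206), and Col3a1 fell by 0.92. Dcn and Fbln1 fell by 1.91 and 0.52 on the log2 scale. Lox, which encodes a lysyl oxidase, had a log2FC of 0.04 (edgeR FDR = 0.447). Mmp9 rose from 0.420 to 17.0 CPM, Mmp14 rose by 1.17 and Mmp2 by 0.29 on the log2 scale.

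**Figure D4:**
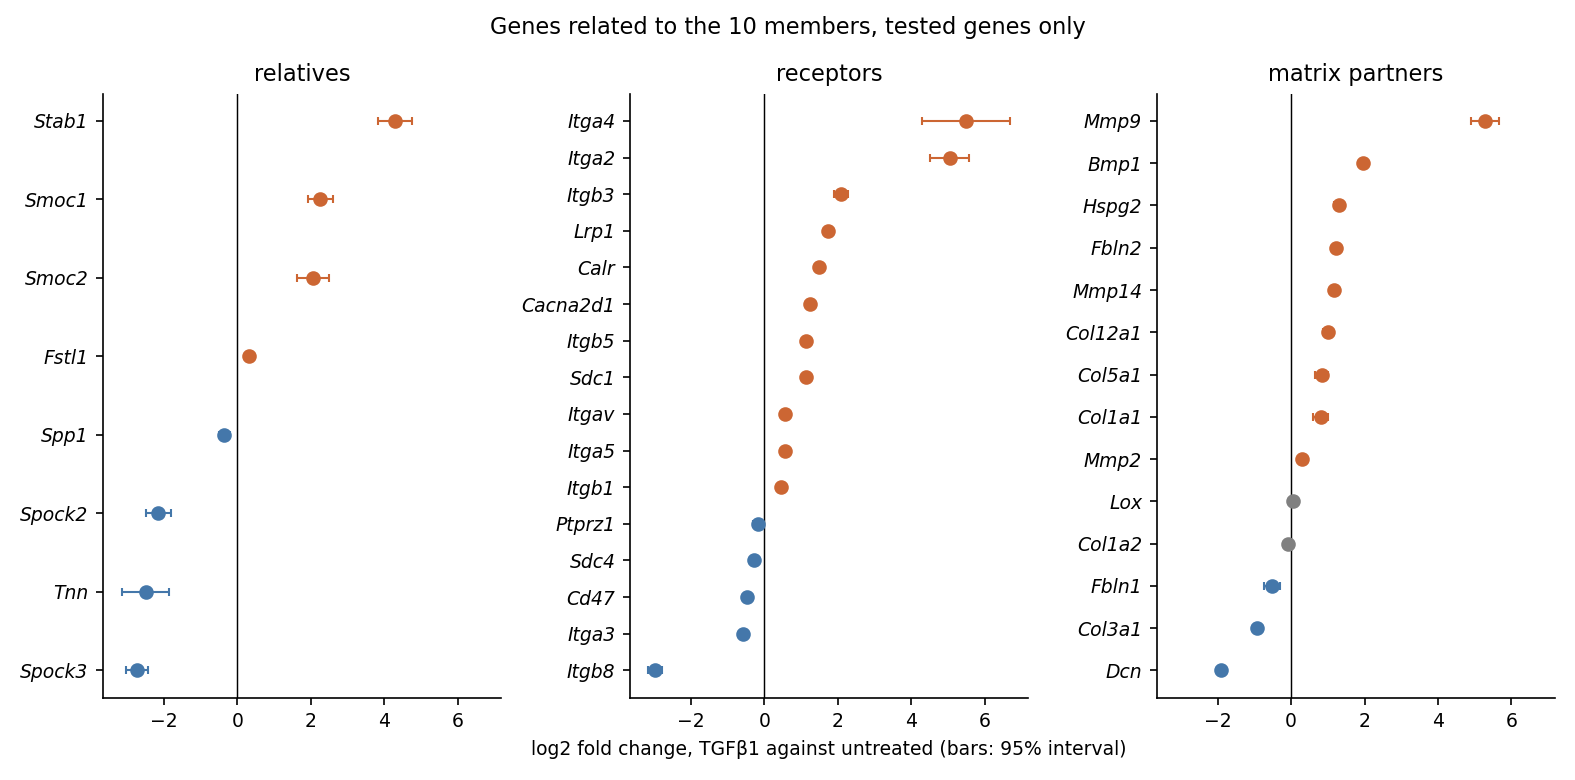
Log2 fold change with 95% intervals of the tested genes among relatives, receptors and matrix partners of the members, orange where called higher, blue where lower and grey where not called. Relatives split into 4 higher and 4 lower genes, while 11 of 16 receptors and 9 of 14 partners lie above 0 as called genes. Itga2, Itga4 and Stab1 passed the filter on low counts only through treated libraries, and Tnn only through untreated libraries. Without these genes 9 of 14 receptors were called higher, and relatives split into 3 and 3. The lists were chosen with earlier results of these data known. Of all genes tested, 37.6% were called higher and 38.0% lower.

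The genes with profiles closest to the strongest riser and to the member that fell were sought by the root mean square distance of centred log2 CPM over the 8 libraries. Closest to Thbs2 were Nat8l at a distance of 0.0555, Has2 at 0.0665 and Rai2 at 0.0813 log2 units. Of these Has2, which encodes a hyaluronan synthase, rose from 12.5 to 106 CPM, while Nat8l and Rai2 had means of 0.359 and 0.0450 CPM in untreated cells, where the offset of 0.5 CPM shapes the profile. Closest to Sparc were Mark2 at 0.0120, Ptpn21 at 0.0145 and Stimate at 0.0175 log2 units, with log2FC values of -0.26, -0.27 and -0.24. These distances are descriptions and mostly reflect the difference between the groups.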

How the data were processed

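RNA of 8 SV-LEC samples was sequenced from stranded poly(A) libraries with single-end reads of 75 bases, which the authors mapped to GRCm38. Processing notes of the submitters name STAR 2.7.3a and featureCounts 1.5.1, and the annotation release, strand setting and handling of multimapping reads are not given in the sources used here. The authors deposited raw counts per gene without normalization. Samples were grouped by their titles. The members and gene lists were chosen with earlier results of these data known.

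The analysis used edgeR 4.0.16 under R 4.3.3 (filterByExpr, TMM, estimateDisp, glmFit and glmLRT), after the paper's Methods. Standard errors are the log2 fold change over the root of the likelihood ratio statistic, and 95% intervals use 1.96 of them. Ratios of counts had 1 count added to each term. Positions, exon lengths and shared stretches of 75 bases came from GENCODE M21, which matched 55230 of 55471 genes, and promoters from RefSeq. Floors of 3 counts cover counting error only. The pipeline was tested on simulated data.

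Named genes were the members, the lists of relatives, receptors, partners and markers, genes overlapping a member, and the 3 nearest profiles to the members with the largest and smallest log2 fold change. Alternatives were the quasi-likelihood test, DESeq2 1.42.0, other scalings, filters and thresholds, glmTreat, a replicate block and each library left out.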

Additional observations from a re-analysis of the deposited data

Results flagged for a closer look

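The CPM of Thbs2 in untreated cells had a library far from the others. Replicate 4 had 33.3 CPM against 37.8 to 38.4 CPM in the other 3, and its gap to the nearest was 0.874 of the whole range, above Dixon's 95% critical value for 4 libraries. This was the only such case among 18 groups of member values checked, and chance gives about 1 in 20. Without untreated replicate 4 the rise of Thbs2 was still called, since its log2 fold change lay between 2.98 and 3.06 whichever library was left out.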

How the results depend on the processing

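The number of members that rose was 7, and it lay between 6 and 8 over 16 alternatives. It was 6 when at least 1 CPM in 4 libraries was required, which removed Comp and Tnxb, and 8 without treated replicate 3, when Tnxb passed. Sparc was the single member called lower in all 16. The counts for relatives, receptors and partners stayed within 1.5 times their main values. When a change above 1 on the log2 scale was required (glmTreat), Thbs1, Thbs2, Thbs3, Comp and Postn passed, and Tnc, Fn1 and Sparc did not. Scaling by library totals alone shifted all genes by a median of -0.07 and turned no member's direction.

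Over all genes tested, libraries with the same replicate number did not vary together. The deviations from group means of same-numbered libraries correlated at -0.16, -0.08, -0.04 and -0.27 over genes. Between an untreated and a treated library with different numbers the correlations ran from -0.31 to 0.35. The replicate block changed the calls from 10449 to 10152 genes and of the members gave 7 higher and 1 lower. Its effect on members differed, since the SE of Tnc fell from 0.0672 to 0.0484 and that of Sparc rose from 0.0359 to 0.0415. For the ratio of Comp to Thbs3, the log2 difference was 1.53 with 0.5 counts added in place of 1. Leaving out each library gave log2 differences from 0.75 to 1.40, and p rose to 0.0571 (exact permutation test) in 5 of the 8. For Tnc to Tnxb the range was from -0.25 to 0.20 and the sign turned in 3 of the 8, to 0.20 without untreated replicate 3 and to 0.04 and 0.03 without treated replicates 1 and 2. For Thbs1 to Thbs2 it was from -0.67 to -0.61. Depth limits Comp, Tnxb and Tgfbi.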
